A study of Mus musculus with 32 samples.

Results

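The genes followed here encode the contents of cytotoxic granules: the granzymes Gzma, Gzmb, Gzmc and Gzmk, the pore protein perforin (Prf1), and the granule proteins Nkg7, Ctsw and Srgn. These 8 genes were chosen by name out of the 24475 genes in the deposited expression tables, and with them came the 81 peaks, of 215616 in 8 deposited peak lists, whose nearest gene start site belonged to one of them. The rule is a list of names and uses no threshold on a measured value, but the names were chosen with earlier results of these data known. The study measured mRNA by RNA-seq and factor binding by ChIP-seq in 2 lines of mouse cells. Scid.adh.2c2 derives from a thymic lymphoma and resembles a T-cell precursor. ILC2/b6 derives from innate lymphoid cells of group 2 and was kept in IL-2, IL-7 and IL-33, each at 10 ng/ml.

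The RNA-seq groups in each line were cells transduced with sgControl-CFP, a control CRISPR guide, and cells transduced with sgBcl11b, a guide to Bcl11b, which encodes a transcription factor of T cells and ILC2s. Each of these 4 groups had 2 libraries of 34.7 to 43.7 M reads (M, mega). The labels do not say whether the 2 libraries were separate cultures, so each p-value measures only the spread between these libraries. In these bulk libraries, fewer cells of a type and less RNA per cell cannot be told apart. The 16 ChIP-seq libraries covered Bcl11b, GATA3, Runx1 and Runx3 in cells of each line for which the labels name no guide, with 2 libraries per factor and line merged by the authors into 1 peak list. Of 8 ILC2 markers, all were tested in ILC2/b6, with summed levels of 8222 to 8386 RPKM in the control libraries. The 8 pro-T markers summed to 1014 to 1051 RPKM in the controls of Scid.adh.2c2 and to 929 to 937 RPKM in those of ILC2/b6. Nearly all of the ILC2/b6 sum came from Il2ra, with 915 and 907 RPKM there against 150 and 168 RPKM in Scid.adh.2c2. Notch1 had 20.4 and 20.0 RPKM in the ILC2/b6 controls. The other 6 pro-T markers, among them Rag1, Ptcra and Tcf7, were under 1 RPKM in every ILC2/b6 library.

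A killer lymphocyte stores perforin and granzymes in acidic granules, bound to the proteoglycan serglycin, the product of Srgn. On contact with a target the granules fuse with the membrane, perforin opens the target's membrane, and the granzymes enter and cleave proteins until the cell dies. The genes are best known from NK cells and cytotoxic T cells, where Runx3 and T-box factors act on several of them. Granzymes also occur in other activated lymphocytes, including innate lymphoid cells.

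The sequences just upstream of the start sites are shown because several of the peaks described further on lie within them. RefSeq windows (build GRCm38.p6, 250 bases before to 50 bases after a start site) were found for 7 of the 8 genes, 1 window each except for Srgn, which had 2. They were searched on both strands for the Runx motif TGTGGT, for the GATA motif in its forms AGATAA or else TGATAA, for the T-box motif AGGTGTGA, and for the STAT motif TTCNNNGAA. None of these strings contains another. TGTGGT was found in 6 of the 7 genes, and in 18.9% of all 27025 genes with such windows. The 250 upstream bases of those 6 genes read as follows, 5′ to 3′ on the gene's own strand, with TGTGGT or its reverse complement in capitals.
Gzma, chr13:113100982-113101231, minus strand: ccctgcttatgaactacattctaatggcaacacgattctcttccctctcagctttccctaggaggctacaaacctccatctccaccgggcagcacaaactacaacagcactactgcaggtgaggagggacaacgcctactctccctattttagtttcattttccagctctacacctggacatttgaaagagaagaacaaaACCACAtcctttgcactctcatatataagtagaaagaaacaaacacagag
Gzmb, chr14:56262335-56262584, minus strand: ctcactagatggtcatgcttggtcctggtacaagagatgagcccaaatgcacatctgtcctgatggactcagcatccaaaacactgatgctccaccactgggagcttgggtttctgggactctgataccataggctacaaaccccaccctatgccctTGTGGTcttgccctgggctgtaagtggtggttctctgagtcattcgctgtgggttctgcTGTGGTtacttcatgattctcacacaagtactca
Gzmc, chr14:56234658-56234907, minus strand: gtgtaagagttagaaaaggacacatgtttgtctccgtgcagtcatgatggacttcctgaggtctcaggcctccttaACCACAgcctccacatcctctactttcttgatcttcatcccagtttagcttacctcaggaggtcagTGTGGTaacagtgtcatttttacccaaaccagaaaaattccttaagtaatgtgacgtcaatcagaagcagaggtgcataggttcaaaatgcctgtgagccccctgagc
Prf1, chr10:61297586-61297835, plus strand: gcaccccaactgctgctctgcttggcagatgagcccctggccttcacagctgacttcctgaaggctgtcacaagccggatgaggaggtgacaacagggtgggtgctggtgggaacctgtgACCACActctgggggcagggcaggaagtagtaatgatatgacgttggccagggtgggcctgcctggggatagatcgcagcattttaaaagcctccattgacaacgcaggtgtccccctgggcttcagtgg
Nkg7, chr7:43436888-43437137, plus strand: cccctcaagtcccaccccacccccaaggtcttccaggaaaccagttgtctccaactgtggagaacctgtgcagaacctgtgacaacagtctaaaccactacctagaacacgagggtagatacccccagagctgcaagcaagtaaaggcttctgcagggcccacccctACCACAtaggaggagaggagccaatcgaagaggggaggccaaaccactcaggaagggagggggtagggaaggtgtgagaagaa
Srgn, chr10:62507758-62508007, minus strand: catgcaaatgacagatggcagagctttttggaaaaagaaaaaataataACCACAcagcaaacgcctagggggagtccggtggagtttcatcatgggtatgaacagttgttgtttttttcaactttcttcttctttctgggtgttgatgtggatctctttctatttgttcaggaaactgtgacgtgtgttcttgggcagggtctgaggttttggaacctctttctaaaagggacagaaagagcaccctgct

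Gzmb held TGTGGT at 93 and 34 bases before the start and Gzmc at 174 and 108 bases before it. The single matches lay 50 bases before the start of Gzma, 83 before Nkg7, 130 before Prf1 and 202 before the start of Srgn whose window is printed. The Gzmk window held no TGTGGT. Only Nkg7 held AGGTGTGA, 14 bases before its start, a motif found in 1.5% of all genes. TTCNNNGAA was present in Gzmb, 38 bases after the start, and in Nkg7, 220 bases before it, against 9.6% of all genes. Neither GATA motif was in any of the windows (21.0% of all genes). A match is only a string of letters, and it was not tested for binding.

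The control libraries of the 2 lines expressed very different members of the group. Levels are given as RPKM, read counts divided by transcript length and by sequencing depth, which can be compared between genes; the tables of the lines were made separately, so levels in the 2 lines are set side by side without a test. In ILC2/b6, Gzmb, a serine protease that cleaves caspases after aspartate, was the second most abundant of all 24475 genes in each of the 4 libraries, behind Tmsb4x. It took 0.713% to 0.768% of all reads. Its 2 control libraries had 4736 and 4910.2 RPKM. Srgn followed with 1049 and 1091 RPKM in the same libraries, and Gzma, a tryptase-like granzyme, with 802 and 801 RPKM.

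The pore protein was far less abundant in that line than the proteases: Prf1 had 9.33 and 8.79 RPKM in the ILC2/b6 control libraries. Gzmc, a granzyme encoded next to Gzmb, had 31.2 and 30.3 RPKM, or 0.660% and 0.617% of the Gzmb level in the same library. Ctsw, a cysteine protease of cytotoxic lymphocytes, had 4.28 and 4.73 RPKM. Nkg7, a granule membrane protein that takes part in granule release, had 0.133 and 0.211 RPKM, from 4 and 6 reads. Gzmk, another tryptase-like granzyme, was listed at 0 in both, where 3 reads would have given 0.0985 to 0.109 RPKM. The order in ILC2/b6 was thus Gzmb, Srgn, Gzma, Gzmc, Prf1, Ctsw, Nkg7 and Gzmk, and no neighbouring pair overlapped between the control libraries.

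In Scid.adh.2c2 the control libraries had only 1 member at a high level, Gzma, with 209 and 198 RPKM. Srgn had 7.23 and 5.31 RPKM and Gzmb 5.01 and 2.07 RPKM, so that the lower Srgn library lay close to the higher Gzmb library. Nkg7 (0.992 and 1.50 RPKM) and Ctsw (0.657 and 0.667 RPKM) were near the detection filter of 1 RPKM. Prf1 rested on 8 and 1 reads (0.089 and 0.014 RPKM). Gzmc had 0 and 1 reads and Gzmk none. The plot of levels by library shows these values beside those with the Bcl11b guide.

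**Figure D1:**
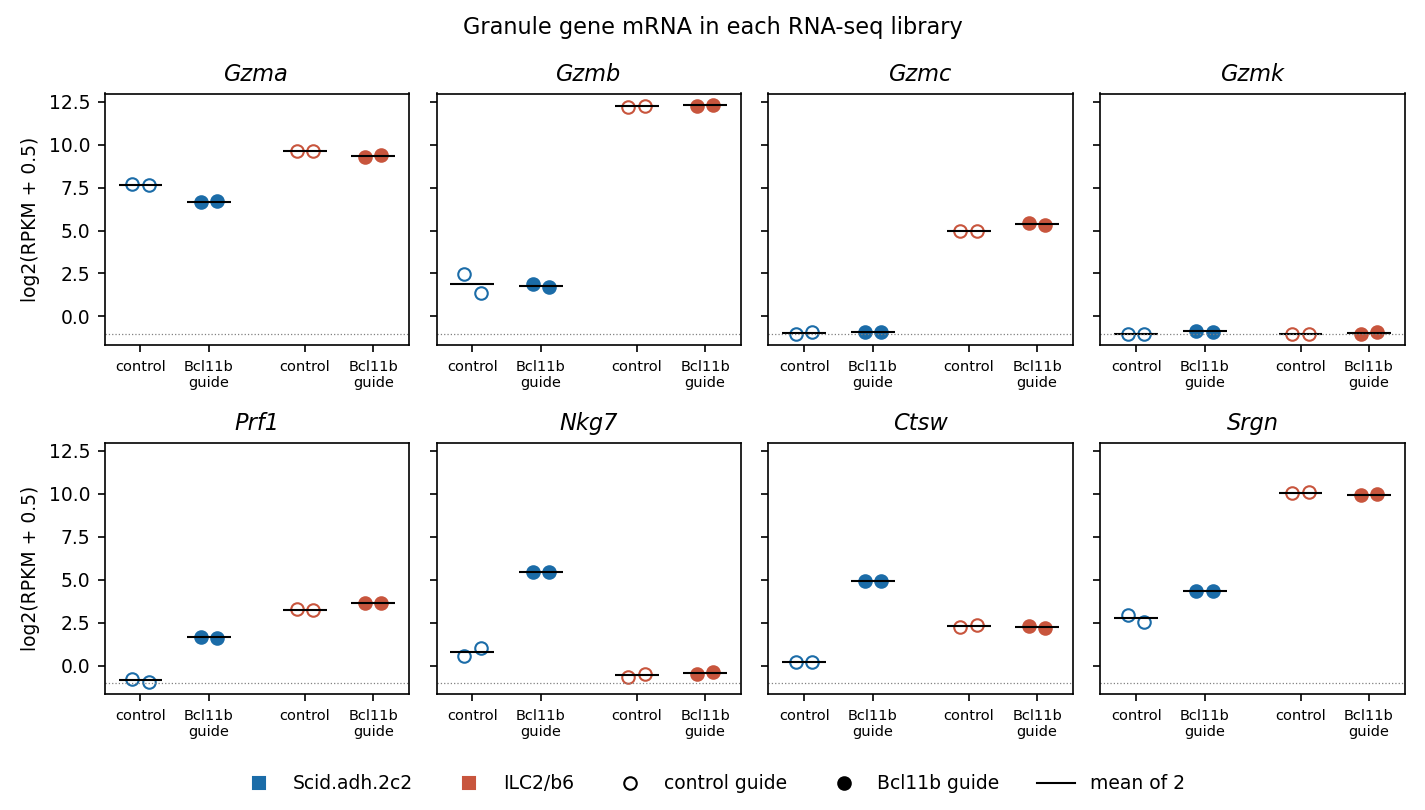
mRNA level of each granule gene as log2(RPKM + 0.5) (vertical axis) in the 8 RNA-seq libraries, by line and guide; each circle is 1 library, the bar is the mean of 2, and the dotted line marks 0 RPKM. In Scid.adh.2c2, Prf1, Nkg7, Ctsw and Srgn stood higher with the Bcl11b guide in both libraries and Gzma lower, while the ILC2/b6 libraries of both guides lay close together for every gene.

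The targeted gene itself was at similar levels with both guides: in Scid.adh.2c2 the Bcl11b level was 47.0 and 49.5 RPKM without its guide and 47.1 and 46.8 RPKM with it, and in ILC2/b6 6.85 and 6.33 against 7.04 and 7.24 RPKM. Its log2 fold change was -0.04 ± 0.04 (SE; limma, adjusted p = 0.455) and 0.11 ± 0.06 (adjusted p = 0.278). Centring each Scid.adh.2c2 library on its median brought this to -0.17 with an adjusted p of 0.00856, and quantile normalization to -0.11 with an adjusted p of 0.0460. A CRISPR guide can leave the transcript in place, and whether the guide cut cannot be read from these levels.

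With the Bcl11b guide in Scid.adh.2c2, the pore protein and the granule proteins Nkg7, Ctsw and Srgn rose, Gzma fell, and Gzmb did not pass the test. Of the 8 genes, 6 had at least 1 RPKM in at least 2 libraries and were tested with limma on log2(RPKM + 0.5), and 5 passed at an adjusted p under 0.05. Changes were common in this line, since 57.8% of the 10221 tested genes passed, 35.1% upward and 22.7% downward. The members that rose numbered 4 and those that fell 1. Prf1, Nkg7 and Ctsw reached the 2 libraries at 1 RPKM only with the help of the guide libraries, so the count of tested members is not a count of all members.

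Prf1, the perforin that opens the target membrane (mm9 chr10:60760584-60767011), went from 0.089 and 0.014 RPKM to 2.73 and 2.50 RPKM with the guide. In reads these are 8 and 1 against 228 and 206, so the groups did not overlap. The ratio of the means, 50.7, rests on those few control reads. The log2 fold change was 2.50 ± 0.12 (SE, limma adjusted p = 2.74e-06). With so few control reads its size depends on the pseudocount, at 4.21 with 0.1 RPKM and 1.78 with 1 RPKM.

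Nkg7 (mm9 chr7:50692508-50693616) rose from 0.992 and 1.50 RPKM to 43.2 and 42.6 RPKM, a ratio of the means of 34.4. Its log2 fold change was 4.65 ± 0.13 (SE, limma adjusted p = 2.46e-07). Ctsw (mm9 chr19:5465043-5468507) rose from 0.657 and 0.667 RPKM to 29.8 and 29.7 RPKM, a ratio of 44.9, with a log2 fold change of 4.70 ± 0.07 (SE, limma adjusted p = 2.64e-08). For both genes the 2 libraries with the guide differed little from each other and lay far above both controls.

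Srgn, the proteoglycan core on which granzymes and perforin are stored (mm9 chr10:61956581-61970505), rose from 7.23 and 5.31 RPKM to 20.1 and 19.6 RPKM, again without overlap. Its log2 fold change was 1.60 ± 0.12 (SE, limma adjusted p = 3.80e-05).

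Among the granzymes the direction was not upward. Gzma (mm9 chr13:113884032-113891189) fell from 209 and 198 RPKM to 100.4 and 104.5 RPKM (log2 fold change -0.99 ± 0.04, SE, limma adjusted p = 2.40e-06), and both libraries with the guide were below both controls. Gzmb (mm9 chr14:56877673-56881171) had 5.01 and 2.07 RPKM in the controls and 3.14 and 2.72 RPKM with the guide. The guide libraries lay between the 2 controls, and the log2 fold change of -0.14 ± 0.31 did not pass (SE, limma adjusted p = 0.731). The Gzmb result rests on its control libraries: without control replicate 1 it was 0.42 (adjusted p = 0.00479), and without control replicate 2 it was -0.69 (adjusted p = 7.32e-05). Gzmc (mm9 chr14:56850238-56853494) had 1 read in each library with the guide, and Gzmk (mm9 chr13:113962082-113971105) had 2 and 1 reads. Both were too low to test.

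Markers of NK cells and of other cell types moved in the same libraries. The summed level of 8 NK markers was 0.458 to 0.559 RPKM in the Scid.adh.2c2 controls and 50.0 to 51.4 RPKM with the Bcl11b guide. Nearly all of that sum came from Ncr1, the NK receptor NKp46 (0.142 and 0.258 against 37.6 and 36.3 RPKM), and Tyrobp, a signalling adaptor (0.123 and 0.206 against 11.3 and 11.2 RPKM). The other 6, Eomes, Klrb1c, Klrd1, Klre1, Klrk1 and Itga2, were under 1 RPKM in all 4 libraries and were not tested. All 8 markers were nevertheless higher in both libraries with the guide than in both controls, though Klre1 had only 0 and 0 against 2 and 5 reads. How many of all genes were higher in this way was not counted, so this count has no share over all genes beside it. The 35.1% of tested genes that rose are limma calls, which is another measure. Klrb1c, the NK receptor NK1.1, had 9 and 2 reads in the controls and 106 and 97 with the guide, Klrk1 0 and 0 against 56 and 42, Klrd1 2 and 0 against 25 and 32, and Eomes 1 and 1 against 9 and 7. The part of NK cells, NK-like cells or other cell types in the change of the granule genes was not tested. Cd3e, a T-cell receptor component, had 173 and 174 RPKM in the controls and 172 and 174 RPKM with the guide. The summed level of the 8 pro-T markers fell to 634 to 639 RPKM with the guide. That of 8 mast cell markers went from 21.5 to 23.7 RPKM in the controls to 63.1 to 63.3 RPKM, of which Cpa3 made up nearly all. Of 8 ILC2 markers 5 were tested, and 4 rose and 1 fell, with 2 tested only because of their guide libraries. Of 8 myeloid markers 3 were tested and 2 rose, Itgam and Spi1, the latter tested only because of its guide libraries. Of 6 CD8 T-cell markers 4 were tested, and 1 rose and 2 fell. Over all tested genes 35.1% rose and 22.7% fell. The median over all tested genes lay 0.13 higher on the log2 scale with the guide. Neither median centring nor quantile normalization turned the direction of a tested member. When the libraries were centred on their medians, the share of called genes that rose went from 60.7% to 38.5% over all genes, while the same 4 members rose and the same 1 fell.

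**Figure D2:**
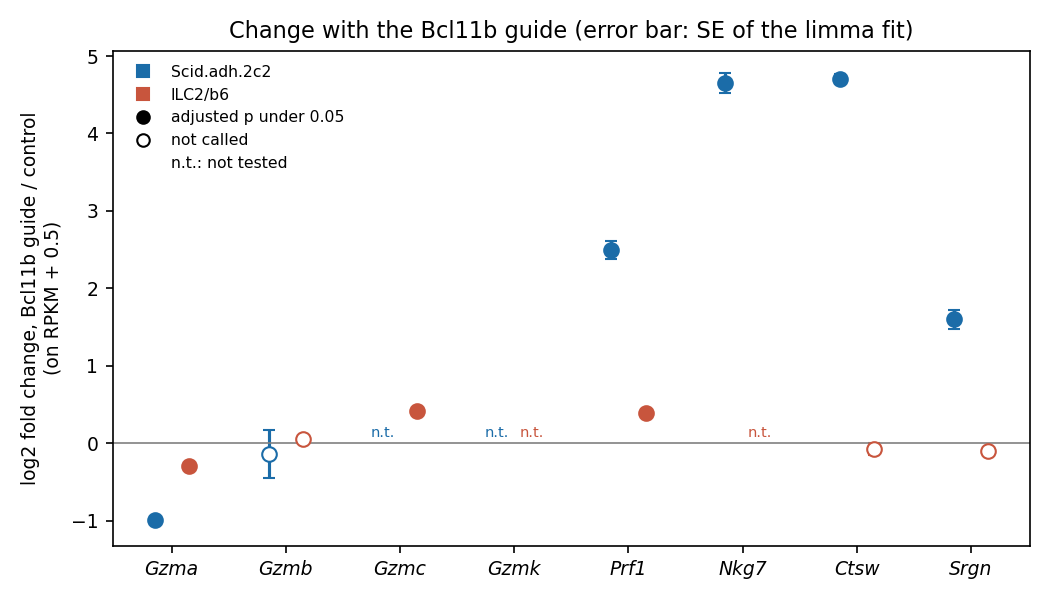
Log2 fold change of each granule gene with the Bcl11b guide against the control guide, on RPKM + 0.5 (vertical axis), in both lines; points are limma estimates, bars their SE, filled points passed an adjusted p of 0.05, and n.t. marks genes too low to test. The changes in Scid.adh.2c2 run from -0.99 (Gzma) to 4.70 (Ctsw), and those in ILC2/b6 from -0.29 (Gzma) to 0.41 (Gzmc).

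In ILC2/b6 the Bcl11b guide came with smaller changes: Prf1 and Gzmc rose, Gzma fell, and Gzmb, Srgn and Ctsw did not pass the test. Again 6 of the 8 genes were tested, and 3 passed, beside 14.5% of the 10526 tested genes of this line. The 2 that rose stand beside 8.32% of all tested genes and the 1 that fell beside 6.21%. Over all genes 57.3% of the calls were rises, and 41.7% with median-centred values, under which the same 3 members passed in the same directions.

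Prf1 went from 9.33 and 8.79 RPKM to 12.2 and 11.9 RPKM (log2 fold change 0.39 ± 0.05, SE, limma adjusted p = 0.00403). Gzmc went from 31.2 and 30.3 RPKM to 42.6 and 39.6 RPKM (0.41 ± 0.05, adjusted p = 0.00202). For both genes the lower library with the guide was above the higher control. Gzma had 802 and 801 RPKM in the controls and 632 and 676 RPKM with the guide, a log2 fold change of -0.29 ± 0.04 (SE, limma adjusted p = 0.00516). Without the filter on low genes the adjusted p of Gzma was 0.0566.

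Gzmb stayed the second most abundant gene, with 4736 and 4910.2 RPKM in the controls and 4901 and 5104 RPKM with the guide. The groups overlapped, and the log2 fold change was 0.05 ± 0.04 (SE, limma adjusted p = 0.479). Srgn had 1049 and 1091 RPKM against 988 and 1007 RPKM. Its groups did not overlap, but the difference of -0.10 ± 0.04 did not pass (SE, limma adjusted p = 0.124). Ctsw overlapped between groups, with 4.28 and 4.73 against 4.45 and 4.05 RPKM (-0.07 ± 0.08, adjusted p = 0.563). Nkg7 had 4 and 6 reads in the controls and 7 and 8 reads with the guide, and Gzmk had 1 read in 1 of the 4 libraries. Neither was tested.

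Markers of mast cells and of ILC2s moved with the guide in this line. The summed level of the 8 ILC2 markers went from 8222 to 8386 RPKM in the controls to 5784 to 5936 RPKM with the guide, with 3 of the 8 called lower, Il5, Il13 and the growth factor Areg, and 1 called higher, Klrg1. Il13 had 4472 and 4406 RPKM in the controls and 3025 and 3151 RPKM with the guide (log2 fold change -0.52, limma adjusted p = 0.000487). The summed level of 8 mast cell markers was 29.6 to 31.5 RPKM in the controls and 91.7 to 92.6 RPKM with the guide, while 3 of the 8 stayed under 1 RPKM and the receptor subunit Ms4a2 was listed at 0 in all 4 libraries. Cma1 and Tpsb2, both mast cell proteases, made up most of the difference. The part of either marker list in the changes of Prf1, Gzmc and Gzma was not tested. All 6 CD8 T-cell markers and 7 of the 8 NK markers stayed under 1 RPKM in all ILC2/b6 libraries.

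The response to the guide was then compared between the lines in 1 limma fit over the 8 libraries, where 7 of the 8 genes were tested. The difference between the lines passed for 6 of them, beside 45.1% of all 11600 genes tested. Ctsw differed most, with a change of 4.70 in Scid.adh.2c2 and -0.07 in ILC2/b6 on the log2 scale (adjusted p = 4.13e-08). Nkg7 (adjusted p = 6.79e-07), Prf1 (adjusted p = 3.11e-06) and Srgn (adjusted p = 5.78e-05) also changed more in Scid.adh.2c2. Prf1 was the only member called higher in both lines, by 2.50 and 0.39. Over all genes 39.9% of these calls were higher in ILC2/b6, and 59.2% with median-centred values, which left the direction of each member as it was. Gzma fell in both lines, and fell further in Scid.adh.2c2 (-0.99 against -0.29, adjusted p = 7.87e-05). The difference for Gzmc (adjusted p = 0.0110) was against a line with 0 or 1 reads per library and did not pass with a pseudocount of 0.1 RPKM (adjusted p = 0.271) or with quantile normalization (adjusted p = 0.390). For Gzmb it was 0.19 ± 0.40 (SE, limma adjusted p = 0.731).

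The genes that make, load, release and restrain the granule were described from 6 lists of 64 genes in all. The lists were chosen with earlier results of these data known, so their counts and medians are descriptions and were not tested. In Scid.adh.2c2, 42 of the 64 were tested, and 34 rose, 3 fell and 5 did not pass, with a median log2 fold change of 0.84 beside 0.05 over all tested genes. Over all tested genes of this line 35.1% rose and 22.7% fell. Of the 42, 4 passed the filter on low values only with the help of the guide libraries, and all 4 of these rose, so the count is not one of all 64. With median-centred values 28 of the 42 rose and 3 fell, while over all genes 2466 rose and 3934 fell. In ILC2/b6, 54 were tested, and 16 rose, 8 fell and 30 did not pass, with a median of 0.08 beside 0.02 over all tested genes, of which 8.32% rose and 6.21% fell. The ILC2/b6 count depends on the filter and the libraries: 11 of 62 passed with no filter on low genes, 15 without Bcl11b guide replicate 1, and 13 without Bcl11b guide replicate 2.

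Of the 6 serpins in the list of inhibitors, 4 were tested in Scid.adh.2c2 and passed upward, beside 35.1% of all tested genes. Serpina3g was tested only because of its guide libraries, and Serpinb9b and Serpinb1a were under 1 RPKM in all 4 libraries. Serpinb9, which inhibits granzyme B, went from 3.43 and 3.32 RPKM to 14.9 and 14.6 RPKM (log2 fold change 1.98, limma adjusted p = 5.09e-07). Serpina3g went from 0.098 and 0.110 RPKM to 2.57 in both libraries (2.35, adjusted p = 1.75e-06), and Serpinb6b rose by 1.50 (adjusted p = 7.85e-06). Serpinb6a, with 2.10 and 2.70 against 3.54 and 3.18 RPKM (0.42, adjusted p = 0.0207), lost its call with median-centred values (adjusted p = 0.0508), with quantile normalization (0.183), with no filter (0.0946), and without Bcl11b guide replicate 1 (0.141) or 2 (0.0553). These genes belong to clusters of near-identical copies, so their reads may be shared. In ILC2/b6, 3 of 5 tested rose, beside 8.32% of all tested genes: Serpina3g by 0.93 (limma adjusted p = 0.00348), Serpinb9 by 0.47 (adjusted p = 0.0299) and Serpinb6a by 0.18 (adjusted p = 0.0364). The Serpinb9 call was lost without control replicate 1 (adjusted p = 0.0670) and without Bcl11b guide replicate 1 (adjusted p = 0.0686), and that of Serpinb6a without control replicate 1 (0.0579), without Bcl11b guide replicate 1 (0.129) or 2 (0.122), and with median-centred values (0.0647).

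Of the genes for granule biogenesis and release, 13 of 15 tested rose in Scid.adh.2c2 and none fell, beside 35.1% and 22.7% of all tested genes. Among the 13, Rab7 (0.12, limma adjusted p = 0.0338), Rab27a (0.19, 0.0476) and Snap23 (0.30, 0.0469) passed narrowly. The median over all tested genes lay 0.13 higher with the guide, and this list was not counted alone with median-centred values. Lyst, a regulator of lysosome-related organelles, went from 2.00 and 2.67 RPKM to 10.2 and 9.69 RPKM (log2 fold change 1.90, limma adjusted p = 1.24e-05). Unc13d, which primes granules for fusion, rose from 8.96 and 8.82 RPKM to 18.4 and 19.3 RPKM (1.05, adjusted p = 4.74e-06). Stxbp2, a fusion partner, rose by 0.89 (adjusted p = 4.84e-06), Sytl2, a Rab27 effector tested only because of its guide libraries, by 1.58 (adjusted p = 1.95e-05), and Sytl1, of the same family, by 1.21 (adjusted p = 6.02e-06).

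In ILC2/b6 the same list split, with 5 of 19 up, 5 down and 9 not passing, beside 8.32% up and 6.21% down over all tested genes. Cd63, a tetraspanin of lysosomes and granules, rose from 78.9 and 77.6 RPKM to 192 and 185 RPKM (log2 fold change 1.26, limma adjusted p = 9.33e-06). Stx11, a fusion protein, fell from 33.6 and 33.0 RPKM to 21.4 and 21.0 RPKM (-0.64, adjusted p = 0.000186), and Unc13d fell by 0.30 (adjusted p = 0.00498). Unc13d therefore moved in opposite directions in the lines (difference -1.35, adjusted p = 8.52e-07).

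Of the processing and sorting genes, 4 of 6 tested rose in Scid.adh.2c2 (35.1% of all tested genes did) and 2 of 8 in ILC2/b6 (8.32%), and none fell in either line. Calr, the chaperone calreticulin, which also binds perforin, rose by 0.52 in Scid.adh.2c2 (limma adjusted p = 3.29e-05), and Gnptg, a subunit of the enzyme that starts the mannose 6-phosphate tag of lysosomal proteins, by 0.51 (adjusted p = 0.000507). M6pr, a receptor for that tag, rose by 0.26 (adjusted p = 0.00121) in Scid.adh.2c2 and by 0.23 in ILC2/b6 (adjusted p = 0.00580). Igf2r, the other receptor for that tag, rose by 0.58 in ILC2/b6 (limma adjusted p = 0.000931). In Scid.adh.2c2 it had 12.8 and 15.0 RPKM in the controls and 16.6 and 16.1 RPKM with the guide (0.22, adjusted p = 0.0396). That call was lost with median-centred values (0.09, adjusted p = 0.249), with quantile normalization (0.292), with no filter (0.126), with no variance trend (0.0721), without control replicate 1 (0.11, adjusted p = 0.0614), and without Bcl11b guide replicate 1 (0.191) or 2 (0.126). Ctsc, the protease that activates progranzymes, had 17.9 and 17.6 RPKM in the ILC2/b6 controls and 17.0 RPKM in both libraries with the guide, and 0 to 0.028 RPKM in Scid.adh.2c2. Of the other granzymes, Gzmg, tested only because of its guide libraries (0.42, adjusted p = 0.0319) rose in ILC2/b6 from 33 and 31 reads to 49 in both libraries, a call that was lost when any 1 of the 4 libraries was left out (adjusted p = 0.0503 to 0.208). The granzymes next to Gzmc on chromosome 14 are close relatives, and reads could be shared among them.

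Of the 4 death ligands, 2 were tested in Scid.adh.2c2 and both rose, beside 35.1% of all tested genes; Fasl and Lta were under 1 RPKM in all 4 libraries. Tnf, which was tested only because of its guide libraries, went from 0.829 and 0.684 RPKM to 5.85 and 6.57 RPKM (log2 fold change 2.42, limma adjusted p = 1.85e-06), and Tnfsf10, the ligand TRAIL, from 3.44 and 3.48 RPKM to 14.2 and 14.3 RPKM (1.90, adjusted p = 5.69e-07). In ILC2/b6, where 3 were tested, Tnfsf10 rose by 0.58 (adjusted p = 0.00158) and Tnf fell by 0.29 (adjusted p = 0.0317), a call lost without control replicate 1 (adjusted p = 0.0980) and without Bcl11b guide replicate 1 (0.160) or 2 (0.0721). Among upstream regulators, 11 of 15 tested rose and 3 fell in Scid.adh.2c2, beside 35.1% and 22.7% of all tested genes, where the rises of the receptor chain Il2rb (5.86), the T-box factor Tbx21 (3.70), Runx3 (2.34) and Id2 (2.24) were the largest in the list. Tbx21 was listed at 0 in 3 of the 4 ILC2/b6 libraries and at 0.011 RPKM in the other. Runx3 had 46.5 and 42.9 RPKM in the ILC2/b6 controls and 43.7 RPKM in both libraries with the guide, against 3.07 and 3.28 and then 18.0 and 18.2 RPKM in Scid.adh.2c2.

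**Figure D3:**
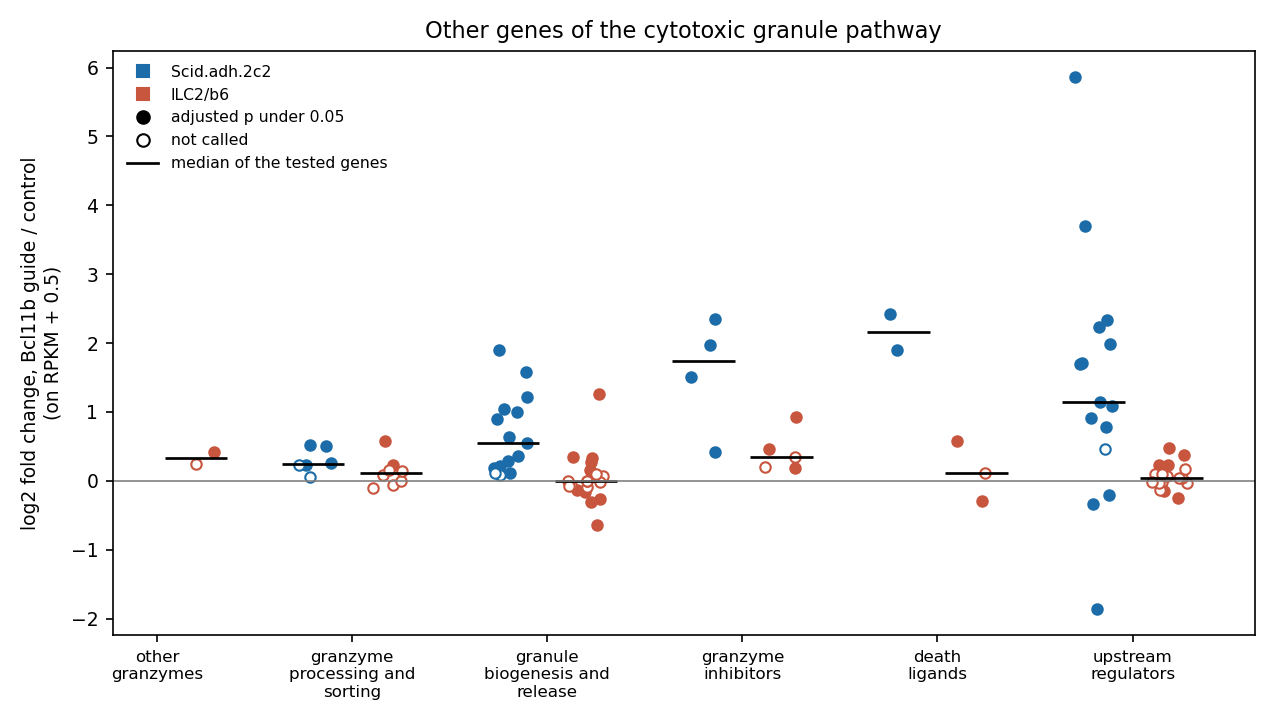
Log2 fold change with the Bcl11b guide, on RPKM + 0.5 (vertical axis), of the tested genes in 6 lists of granule pathway genes (horizontal axis), by line; filled circles passed an adjusted p of 0.05 and bars are medians of the tested genes. In Scid.adh.2c2 the medians run from 0.24 (processing and sorting) to 2.16 (death ligands), and in ILC2/b6 from 0.00 (biogenesis and release) to 0.35 (inhibitors).

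Each member's pattern over the 8 libraries was compared with that of 11599 other genes, by the Euclidean distance between their log2(RPKM + 0.5) values after each gene's mean was removed. The nearest genes to Nkg7 were Ifit3b (distance 0.44), Ifit3 (0.45) and F830016B08Rik (0.55). Ifit3 averaged 1.00 RPKM in the Scid.adh.2c2 controls and 34.0 RPKM with the guide, and was listed at 0 with the guide in ILC2/b6. The nearest to Prf1 were the MHC class I genes LOC547349 (0.41), H2-T-ps (0.51) and H2-Q7 (0.56), whose reads can be shared with near-identical copies. Ctsw stood nearest to Gm8979 (0.91), Apol9a (0.95) and Gimap7 (1.05). Gzma stood nearest to Pmepa1 (0.40), Il9r (0.46) and Sh3pxd2b (0.46).

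The genes whose level was high in ILC2/b6 alone had other neighbours. Gzmb was nearest to Vim (0.56), Tph1 (0.83) and the type 2 cytokine Il5 (0.93), although Il5 averaged 2770 RPKM in the ILC2/b6 controls and 1877 RPKM with the guide. Gzmc was nearest to Hs3st1 (0.19), Ccr1 (0.27) and Glul (0.30), and Srgn to Cotl1 (0.63), Furin (0.77) and 1700061F12Rik (0.81). These distances describe the libraries and were not tested.

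The peak lists showed where the 4 factors were bound near the granule genes in cells for which no guide is named. A peak is an interval that the authors called from 2 libraries together, so it has no replicate error, and its score ranks it only within its own list. Peaks belong here to the gene with the nearest start site. The 81 peaks merged into 33 sites, of which 23 held peaks from ILC2/b6 alone, 2 from Scid.adh.2c2 alone and 8 from both. In Scid.adh.2c2 there were 20 peaks and in ILC2/b6 61. These counts leave out 14 peaks with no gene name near Srgn, which are described with that gene.

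By factor, 3 of the 8 genes had a Bcl11b peak in Scid.adh.2c2 (37.8% of all genes in the tables did) and 6 in ILC2/b6 (39.2%). GATA3 had peaks at 4 (54.1% of all genes) and 6 (50.2%), Runx1 at 3 (33.0%) and 7 (41.4%), and Runx3 at 4 (42.1%) and 8 (57.8%). Within 1 kb of the start site, Bcl11b peaks lay at 2 genes in Scid.adh.2c2 (26.6%) and 3 in ILC2/b6 (25.2%). GATA3 peaks lay there at 1 gene in each line (6.24% and 8.67%), Runx1 peaks at 2 (21.8%) and 4 (23.7%), and Runx3 peaks at 2 (26.7%) and 5 (37.6%). These shares are descriptions with no test. The GATA3 lists name a gene for every peak and the other lists do not, so GATA3 counts and shares are not fully comparable with those of the other factors.

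Gzmb had the most peaks, 20 in ILC2/b6 and none in Scid.adh.2c2. At its promoter, within the distance from the start that the printed sequence covers, Runx3 had a peak 47 bases before the start (mm9 chr14:56881092-56881344) with a score of 386.3, higher than 99.3% of the peaks in that list. Runx1 (score 168.1, 97.3rd percentile) and Bcl11b (43.8, 76.6th percentile) had peaks 3 and 40 bases before it. The remaining 17 peaks formed 7 sites that reached 34.7 kb upstream. At 2 of them, 3.9 kb and 22.3 kb before the start, all 4 factors had peaks, and at 12.5 kb Bcl11b, Runx1 and Runx3 did.

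Gzma had 7 peaks in each line, but not all at the same places. In Scid.adh.2c2 all 4 factors had a peak within 67 bases of the start site, on the promoter: GATA3 at 4 bases after it (score 57.0), Runx3 at 20 bases before (61.9), Runx1 at 30 before (45.9) and Bcl11b at 67 before (mm9 chr13:113891138-113891374, score 48.0, 81.8th percentile). None of the 4 lists of ILC2/b6 had a peak there. A second site 1.1 kb upstream was bound in both lines, by Bcl11b, GATA3 and Runx3 in Scid.adh.2c2 and by all 4 factors in ILC2/b6. Its Bcl11b peaks overlapped between the lines, with scores of 25.9 and 47.2, and were the only such pair among the peaks that carry a member's name. A further site 4.0 kb upstream had Bcl11b, Runx1 and Runx3 in ILC2/b6 alone.

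Gzmc had 4 peaks in ILC2/b6 and none in Scid.adh.2c2: Runx3 (score 97.1), Runx1 (24.5) and Bcl11b (24.9) at 126 to 154 bases before the start, centred, by distance from the start, between its 2 TGTGGT matches, and GATA3 (18.0) 747 bases before it. Gzmk, hardly detected in either line, had 6 Runx1 and Runx3 peaks at 3 sites in ILC2/b6 and 1 GATA3 peak in Scid.adh.2c2, and no Bcl11b peak. Other granzymes of the chromosome 14 cluster had peaks of their own, 4 of GATA3 and 2 of Runx3 in ILC2/b6 and 2 of GATA3 in Scid.adh.2c2, at Gzmd, Gzme and Gzmg.

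At Prf1 both lines had peaks. Every peak of Scid.adh.2c2 lay at a site that also held peaks of ILC2/b6, and ILC2/b6 had further sites of its own. GATA3 had a peak 1.5 kb after the start in Scid.adh.2c2 (score 24.6) and an overlapping one at 1.6 kb in ILC2/b6 (19.1). In Scid.adh.2c2, where its control level was 0.089 and 0.014 RPKM, all 4 factors had a peak 3.4 to 3.5 kb after the start, in intron 2 of 2, with Bcl11b at mm9 chr10:60763835-60764071 (score 24.4, 40.4th percentile) and Runx3 at a score of 81.1 (89.7th percentile). In ILC2/b6 that site had GATA3 and Runx3 only, at scores of 17.9 and 26.6. There the promoter was bound, by Runx1 (27.2) and Runx3 (78.5) at 147 and 138 bases and by Bcl11b (20.0) at 586 bases before the start. A site 36.9 kb downstream with Bcl11b, Runx1 and Runx3, in an intron of the transcript NM_013753, was present in ILC2/b6 alone.

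Nkg7 and Ctsw, the members with the largest log2 fold changes on the RPKM + 0.5 scale in Scid.adh.2c2, had no Bcl11b peak in that line, while Prf1, which had the largest ratio of means, did. Nkg7 had 1 peak there, of Runx3, 1.7 kb after the start, annotated by HOMER to the transcript end (score 24.7, 38.4th percentile). In ILC2/b6, where Nkg7 mRNA was under 0.3 RPKM in all 4 libraries, the same site had all 4 factors, Runx3 with a score of 248.8 (97.1st percentile), Runx1 89.4, GATA3 49.7 and Bcl11b 40.9. Ctsw had 1 peak in all, of Runx3 in ILC2/b6, 31 bases before the start (score 30.5).

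Srgn had 6 peaks with its name in Scid.adh.2c2 and 10 in ILC2/b6. Its promoter had Runx1 and Runx3 in both lines, with scores of 17.3 and 24.4 in Scid.adh.2c2 and 115.7 and 147.3 in ILC2/b6, and Bcl11b in Scid.adh.2c2 alone (16.1, 6.1st percentile). In ILC2/b6 its only Bcl11b peak with a gene name lay 3.8 kb after the start, in an intron (55.5, 85.3rd percentile). GATA3 peaks 1.9 and 4.5 kb after the start and 34.7 kb before it were shared by the lines. A further 14 peaks carry no gene name in the lists, but their nearest transcript, NM_001358965, is one that RefSeq lists under Srgn. They lie at 3 places, 5.6, 16.2 and 23.7 kb upstream of that transcript's start, and include overlapping Bcl11b peaks of both lines at 5.6 kb (56.8 in Scid.adh.2c2 and 35.7 in ILC2/b6) and at 16.2 kb (16.3 and 78.5), and a Bcl11b peak of ILC2/b6 alone at 23.7 kb. The named peaks are measured from another start, that of NM_011157, so distances of named and unnamed peaks cannot be set side by side. By position, the named GATA3 peak of Scid.adh.2c2 at 34.7 kb (mm9 chr10:62005086-62005402) lies close to the unnamed Bcl11b peak at 16.2 kb (mm9 chr10:62006279-62006515). Counting the unnamed peaks would give 25 peaks in Scid.adh.2c2 and 70 in ILC2/b6.

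**Figure D4:**
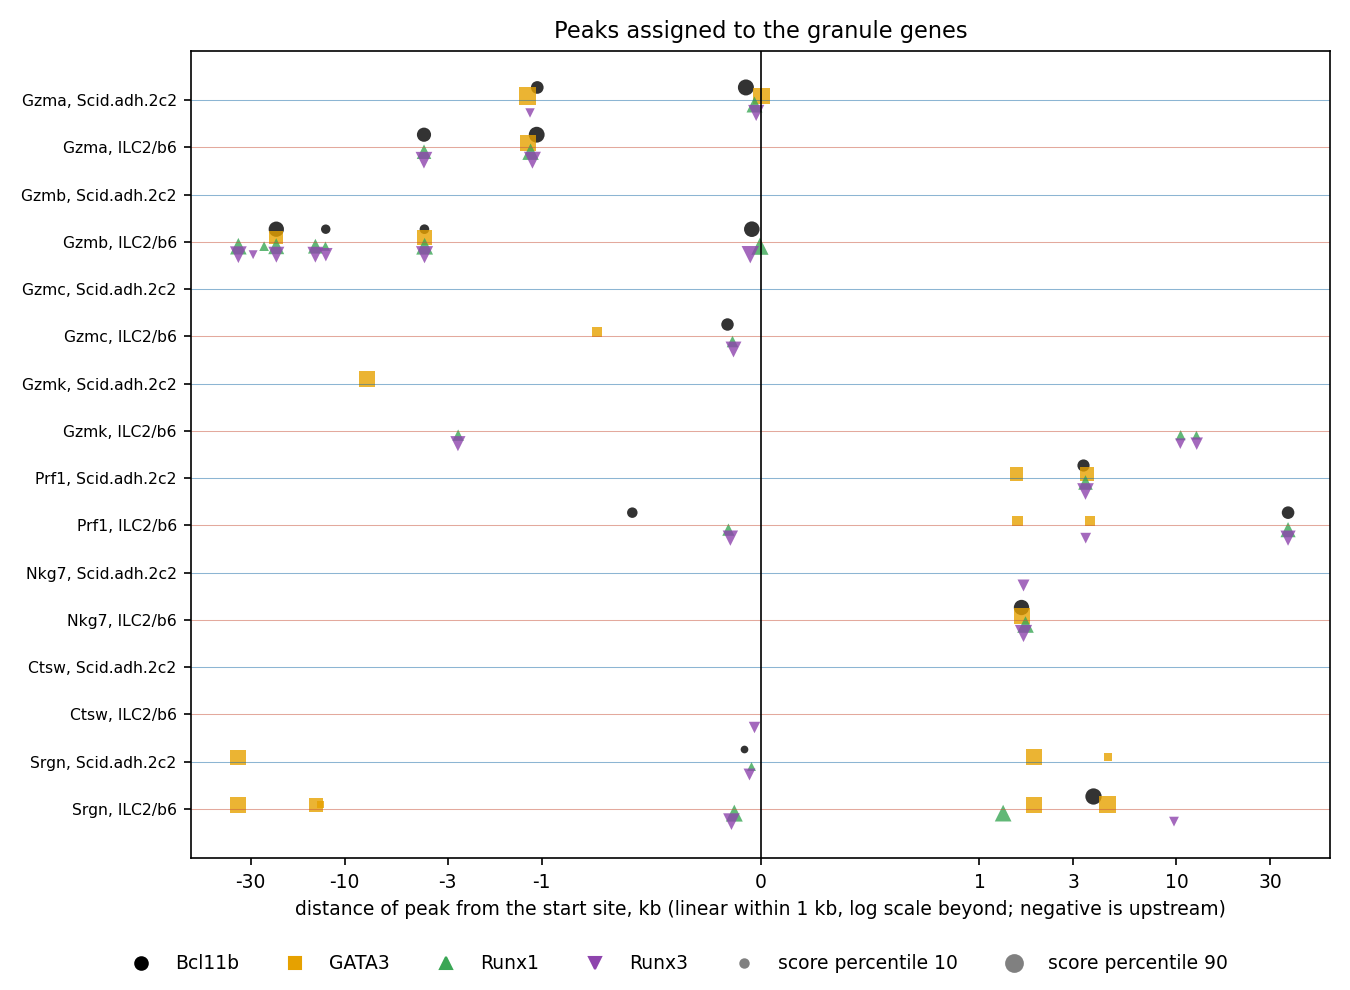
Peaks assigned to each granule gene, by line (rows), at their distance from the gene's start site in kb (horizontal axis, linear within 1 kb and logarithmic beyond, upstream negative); colour and shape give the factor and size the score percentile within the factor's own list. The Gzmb row of ILC2/b6 holds 20 peaks and that of Scid.adh.2c2 none, and Gzma has promoter peaks of all 4 factors in Scid.adh.2c2 alone.

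The overlap of the members' peaks between the lines is given by factor, without a test of any difference between factors. Of the Bcl11b peaks with a gene name, 1 of 4 in Scid.adh.2c2 overlapped one of ILC2/b6 (43.1% over all Bcl11b peaks) and 1 of 11 in ILC2/b6 overlapped one of Scid.adh.2c2 (35.6%). For GATA3 the counts were 6 of 8 (47.3%) and 6 of 12 (51.8%), for Runx1 1 of 3 (50.7%) and 1 of 18 (26.4%), and for Runx3 4 of 5 (60.4%) and 4 of 20 (27.6%). With the Srgn peaks that lack a gene name, the counts became 3 of 6 and 3 of 14 for Bcl11b, 2 of 4 and 2 of 21 for Runx1, and 6 of 7 and 6 of 23 for Runx3, so that the Bcl11b share in Scid.adh.2c2 lay below that over all Bcl11b peaks in the first count and above it in the second. For GATA3 there could be no such peaks, since both GATA3 lists name a gene for every peak. In the lists of the other factors 7.37% to 8.31% of peaks have no gene name. At a score of at least 30 no Bcl11b peak with a gene name was shared, and 1 was with the unnamed peaks counted. Within a line, the Bcl11b peaks of the members overlapped Runx3 peaks at 4 of 4 in Scid.adh.2c2 (73.5% over all Bcl11b peaks) and at 9 of 11 in ILC2/b6 (85.0%). Overlap with Runx1 was 3 of 4 (61.2%) and 9 of 11 (71.0%), and with GATA3 3 of 4 (19.3%) and 4 of 11 (35.0%). With the unnamed peaks these counts were 6 of 6 and 12 of 14 for Runx3, 4 of 6 and 12 of 14 for Runx1, and 3 of 6 and 5 of 14 for GATA3.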

How the data were processed

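RNA-seq in 8 libraries and 8 ChIP-seq peak lists were used. The 8 input libraries, titled FA or DSG, were not used here. Titles of the ChIP-seq libraries carry neither mark, so whether all factors were prepared alike cannot be told from them. A difference in preparation cannot be told apart from a difference between factors. The authors deposited RPKM values per gene and library in 1 table per line, and peak lists that, per the file headers, were made from 2 libraries together, filtered by irreproducible discovery rate and annotated by HOMER on mm9, with a peak score of at least 15.0 that is the authors' own. Per the submitters' processing notes the tools were Bowtie 1.1.1, HOMER, Trimmomatic, STAR 2.4.0, RSEM 1.2.25 and edgeR 3.6.8; their roles are not given. Reads were 50 nt, and the strand of RNA reads was not stated to be kept, so overlapping antisense genes cannot be told apart. The RPKM values step by whole reads, and these steps gave the depth, with values whole within 0.1 read. Floors of 3 reads cover counting error only.

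The test was limma 3.58.1 in R 4.3.3 on log2(RPKM + 0.5), for genes that reached 1 RPKM in 2 or more libraries of the line (mean-variance trend, Benjamini-Hochberg adjustment over all genes tested, threshold 0.05, two-sided). This scale understates the change of low genes. The difference between lines was the interaction contrast over 8 libraries, with genes passing the filter in either line. On simulated data the test recovered most known changes, with false calls above the nominal rate. Peaks overlapped at 1 shared base. Sequences are RefSeq's, of another build than mm9, and were related to peaks only by distance from the start site. The members, lists and motifs were chosen with earlier results of these data known. Named genes were the members, Bcl11b and the bound factors, up to 4 called genes with the largest change from each pathway list, and the 3 nearest genes in pattern. Unc13d, Stxbp2, Stx11, Ctsc, Rab7, Rab27a, Snap23 and the markers fall outside that rule and were chosen after their values were seen. Alternatives were other pseudocounts, filters, scalings and fits, single libraries left out, a peak score of at least 30, and a distance limit of 50 kb.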

Additional observations from a re-analysis of the deposited data

Results flagged for a closer look

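The change with the Bcl11b guide differed between the lines for 6 of the 7 members tested, by the limma interaction contrast over 8 libraries. As the change in ILC2/b6 minus that in Scid.adh.2c2 on the log2 scale, the difference was -4.78 for Ctsw, -4.48 for Nkg7, -2.11 for Prf1, -1.70 for Srgn, 0.69 for Gzma and 0.38 for Gzmc. For Nkg7 and Gzmc 1 of the lines had under 10 reads per library, so these differences rest on the other line and on the pseudocount. Prf1 had 8 and 1 reads in the Scid.adh.2c2 controls, and the size of its difference ran from -3.80 to -1.41 over the alternatives run.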

How the results depend on the processing

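Every tested member other than Gzmb kept its direction in each line under all alternatives run, and the counts of members that passed stayed at 5 to 6 in Scid.adh.2c2, 3 in ILC2/b6 and 6 to 7 for the difference when single libraries were left out. They were 2 in ILC2/b6 with no filter, and 5 for the difference with a pseudocount of 0.1 RPKM or quantile normalization. Gzmb ranged from -0.69 to 0.42 in Scid.adh.2c2 and from -0.36 to 0.74 in the difference. When single libraries were left out, the log2 changes of the factor genes near 0 also crossed it. In those fits Runx1 ran from -0.12 to 0.018 in Scid.adh.2c2 and from -0.083 to 0.072 in ILC2/b6. Runx3 ran from -0.088 to 0.026 in ILC2/b6. The granule pathway count in ILC2/b6, 24, was 11 with no filter and 13 to 25 with single libraries left out. Over all genes, calls in Scid.adh.2c2 went from 5908 to 3818 and 3760 without Bcl11b guide replicate 1 or 2, and calls in ILC2/b6 from 1530 to 615 with no filter and to 923 and 807 without those replicates. In each case the cause was not tested. A left-out library leaves 1 in its group, which is assumed to vary like the rest. At a peak score of at least 30, 10 peaks remained in Scid.adh.2c2, 40 in ILC2/b6, and 0 Bcl11b peaks shared by the lines. With peaks that have no gene name, a count chosen after seeing the data, 3 Bcl11b peaks in place of 1 were shared.

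Control and guide libraries share replicate numbers, but same-numbered libraries deviated together little (correlation 0.04 in Scid.adh.2c2 and 0.11 in ILC2/b6, across genes), so the main fits have no replicate block. With it, 5 members passed in Scid.adh.2c2, 3 in ILC2/b6 and 6 for the difference, and the pathway counts were 36 and 29. Calls over all genes were then 5921 in Scid.adh.2c2 and 2258 in ILC2/b6, beside 5908 and 1530 in the main fits. Depth limits Gzmk in both lines, Gzmc in Scid.adh.2c2 and Nkg7 in ILC2/b6, which had at most 8 reads per library.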
